A study of Mus musculus with 6 samples.

Results

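Hectd2os, a long noncoding RNA gene of mouse chromosome 19, and 8 protein-coding genes around it were examined in fetal testes from which the nearby gene Ppp1r3c had been deleted. Hectd2os was chosen because its counts differed between the groups compared here, so its values are given as a description with no test. The 8 neighbours, Hectd2, Ankrd1, Pcgf5, Tnks2, Fgfbp3, Btaf1, Cpeb3 and Ide, were chosen by their position around Ppp1r3c. All 9 genes were found among the 24470 rows of the count table, and all 9 passed the filter on low counts, as did 15577 genes in all.

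The 6 samples were labelled as whole testes of mouse embryos at stage E12.5, each a pool of 2 gonad pairs. Both groups were homozygous for a floxed Ppp1r3c allele (Ppp1r3c f/f) on a C57BL/6 background. The 3 control samples carried no Cre, and the 3 conditional knockout (cKO) samples also carried Sf1-Cre, a transgene that expresses Cre from Nr5a1 sequences in the somatic progenitors of the gonad, Sertoli cell progenitors included. Control and cKO samples thus shared the floxed chromosome on which all 9 genes lie, and cells without Cre, such as germ cells, kept an intact gene in both. The sources used here do not give the part of Ppp1r3c that the loxP sites enclose.

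The genes of this region have no shared pathway, only a shared position. Hectd2os is named as the opposite strand transcript of Hectd2, which encodes a ubiquitin ligase of the HECT domain family. Ppp1r3c encodes PTG, a scaffold that brings protein phosphatase 1 to glycogen and favours glycogen synthesis. An antisense gene such as Hectd2os is transcribed from the other strand across part of a coding gene. Where exons of both genes overlap, only counting by strand tells the transcripts apart, and the counts used here were strand-specific.

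In mm10 coordinates Hectd2os lies at chr19:36619418-36689479 on the minus strand, and Ppp1r3c at chr19:36731731-36736604, also on the minus strand. Hectd2os therefore began 42.3 kb past the 3′ end of Ppp1r3c in the direction in which Ppp1r3c is transcribed, with no other gene of the count table between them. In the GENCODE M21 annotation of the same build, 8 Hectd2os transcripts are listed, and the outermost of their starts lies closer to Ppp1r3c, at 26.1 kb from its 3′ end. The transcript paired with the RefSeq model has 5 exons of 241, 141, 82, 123 and 2075 bases. Hectd2 (chr19:36554639-36621135, plus strand) runs towards Hectd2os, and their 3′ ends overlap by 1718 bases. These 1718 bases are exonic in both genes, make up 64.5% of the exonic bases of Hectd2os and 36.3% of those of Hectd2, and include 0 bases of Hectd2 coding sequence.

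**Figure D1:**
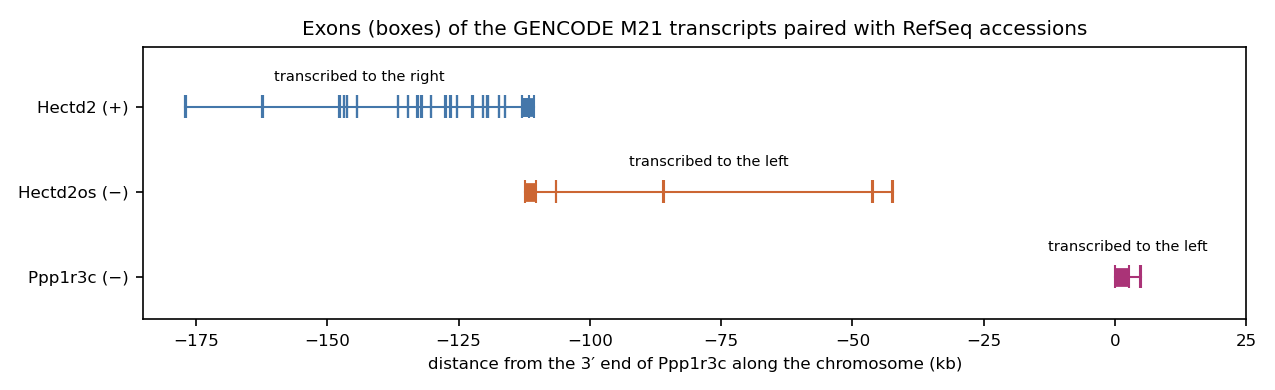
Exons of Hectd2, Hectd2os and Ppp1r3c against the distance in kb from the 3′ end of Ppp1r3c, with boxes and vertical lines for exons and a label for the direction of transcription. Hectd2os and Ppp1r3c run the same way, 42.3 kb apart, and the last exon of Hectd2os overlaps the 3′ end of Hectd2 by 1718 bases.

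The sequences around the annotated starts of both minus strand genes (RefSeq, GRCm38.p6, from 250 bases before to 50 bases after the start, written 5′ to 3′ on the transcribed strand) are shown because the abundance of these genes stood in opposite order in the groups. Capitals mark matches on either strand to 4 motifs, with no match overlapping another. They were TATAAA of the TATA box, CCAAT of the CCAAT box bound by NF-Y, GGGCGG of the GC box bound by SP1, and AAGGTCA, the core of sites bound by NR5A1.
Ppp1r3c, chr19:36736555-36736854: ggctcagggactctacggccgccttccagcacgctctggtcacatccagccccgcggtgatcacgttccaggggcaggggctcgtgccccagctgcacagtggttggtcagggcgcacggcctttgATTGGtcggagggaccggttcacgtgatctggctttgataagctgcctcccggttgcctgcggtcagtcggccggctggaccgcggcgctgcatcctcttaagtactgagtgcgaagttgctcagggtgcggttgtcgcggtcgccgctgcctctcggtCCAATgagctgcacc
Hectd2os, chr19:36689430-36689729: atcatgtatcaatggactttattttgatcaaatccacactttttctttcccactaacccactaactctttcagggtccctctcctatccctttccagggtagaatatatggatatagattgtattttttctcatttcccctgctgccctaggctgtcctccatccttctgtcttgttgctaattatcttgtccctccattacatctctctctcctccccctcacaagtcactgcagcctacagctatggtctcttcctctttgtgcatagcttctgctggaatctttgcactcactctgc

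The sequence at the Ppp1r3c start was rich in G and C (65.3%) and held 26 CpG dinucleotides, more than 83.1% of the 32851 RefSeq promoters of this length. The sequence at the Hectd2os start had a GC content of 44.0% and 0 CpG dinucleotides. It lies at the RefSeq start, while the outermost GENCODE M21 start lies closer to Ppp1r3c. Which start of Hectd2os these testes used was not tested. Ppp1r3c held 2 matches to CCAAT, at bases 127 to 131 (reading ATTGG, the other strand) and 286 to 290, and Hectd2os held no match to any of the 4 motifs. Among all promoters, CCAAT was found in 37.4%, GGGCGG in 35.7%, TATAAA in 13.6% and AAGGTCA in 4.72%.

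The libraries held between 16139487 and 44145158 counts, with control replicate 1 the shallowest. The Sertoli cell markers Sox9 (155 to 213 CPM, with CPM being counts scaled to a common library size by TMM) and Amh (588 to 920 CPM) were present in every sample. The libraries of cKO replicates 1 and 3 each stood apart from the rest, the first by genes described with Ankrd1. Xist, transcribed from the inactive X chromosome, reached 379 CPM in cKO replicate 3 against at most 1.0004 CPM elsewhere, and Fst, a gene of pre-granulosa cells, reached 50.9 CPM there against at most 2.02 CPM elsewhere. Whether this pool, labelled testis, held tissue of an XX gonad was not tested, and the values of cKO replicate 3 are to be read with that doubt. The summed level of 8 pre-granulosa markers was 786 CPM in that library and 416 to 511 CPM in the other 5. Kitl made up most of each sum, at 292 to 326 CPM in control and 369, 381 and 465 CPM in cKO replicates 1 to 3. All 13 tested germ cell markers had negative log2 fold changes, and the summed level of the 14 listed was 585 to 941 CPM in control and 293 to 601 CPM in cKO samples. Nanos2 of that list, and Cdh16 of the mesonephros list, were at 0 in at least 1 library. In whole testes, fewer cells of a type and less RNA per cell cannot be told apart.

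The targeted gene was examined first. Ppp1r3c was at 24.4, 22.1 and 22.9 CPM in control replicates 1 to 3 and at 4.71, 5.37 and 5.96 CPM in cKO replicates 1 to 3. Each cKO sample lay below each control sample, as the labels give the genotypes. On the log2 scale this was a difference of -2.11 with an SE of 0.111 (edgeR FDR 0.000126).

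Hectd2os was near the floor of detection in control testes and present in all cKO testes. Control replicates 1, 2 and 3 held 5, 31 and 5 counts, which correspond to 0.308, 0.702 and 0.122 CPM. The cKO replicates held 392, 339 and 274 counts, at 9.78, 9.43 and 8.29 CPM. The groups did not overlap, and the lowest cKO sample was above the highest control sample. The exact Poisson 95% intervals, which cover counting error only, were 0.477 to 0.996 CPM for control replicate 2 and 0.0396 to 0.285 CPM for control replicate 3, so these controls differed by more than counting error. Among cKO samples the intervals of replicates 1 (8.83 to 10.8 CPM) and 3 (7.34 to 9.33 CPM) overlapped.

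The group means of Hectd2os were 0.377 ± 0.296 and 9.16 ± 0.777 CPM (SD, n = 3 each), a ratio of 24.3, and the log2 fold change was 4.52 (SE 0.397). Control replicate 2 alone set much of the control level, since without it the log2 fold change was 5.63. Ankrd1 held 36 counts in that library too, against 4 in each of control replicates 1 and 3, and the cause was not tested. Without cKO replicate 3, the library with high Xist, it was 4.58, and without cKO replicate 1, the other library that stood apart, it was 4.47. The summed germ cell markers ranged lower in cKO samples, but the groups overlapped (585 to 941 CPM in control, 293 to 601 CPM in cKO). Their part in the level of Hectd2os was not tested.

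The exonic lengths of Hectd2os (2662 bases) and Ppp1r3c (2725 bases) are nearly equal, which makes their levels per length easy to set side by side. As RPKM, that is CPM per kilobase of exon, Hectd2os was at 0.142 ± 0.111 in control and 3.44 ± 0.292 in cKO samples (SD, n = 3 each). Ppp1r3c was at 8.498 ± 0.437 and 1.96 ± 0.229 RPKM (SD, n = 3 each). The difference in the mean of Hectd2os was 50.5% of the size of the opposite difference in Ppp1r3c. In control samples the ratio of Hectd2os to Ppp1r3c was 0.0129, 0.0325 and 0.00545, and in cKO samples 2.12, 1.80 and 1.42, so Hectd2os was the more abundant of the pair in every cKO sample and the less abundant in every control sample. Their summed level was 8.37 to 9.09 RPKM in control and 5.30 to 5.51 RPKM in cKO samples. The RPKM of Ppp1r3c used its full exonic length in both groups, and cells with and without Cre were counted together. The part of the gene removed in cells with Cre is not known here. The cKO values of Ppp1r3c, the ratios, the percentage and the sum all carry that limit. Within the cKO group the sample with the lowest Ppp1r3c (replicate 1) had the highest Hectd2os, and the sample with the highest Ppp1r3c (replicate 3) had the lowest, an order of 3 samples that was not tested. The Ppp1r3c counts of these samples were close (189, 193 and 197), and the Poisson intervals of Hectd2os in replicates 1 and 3 overlapped.

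**Figure D2:**
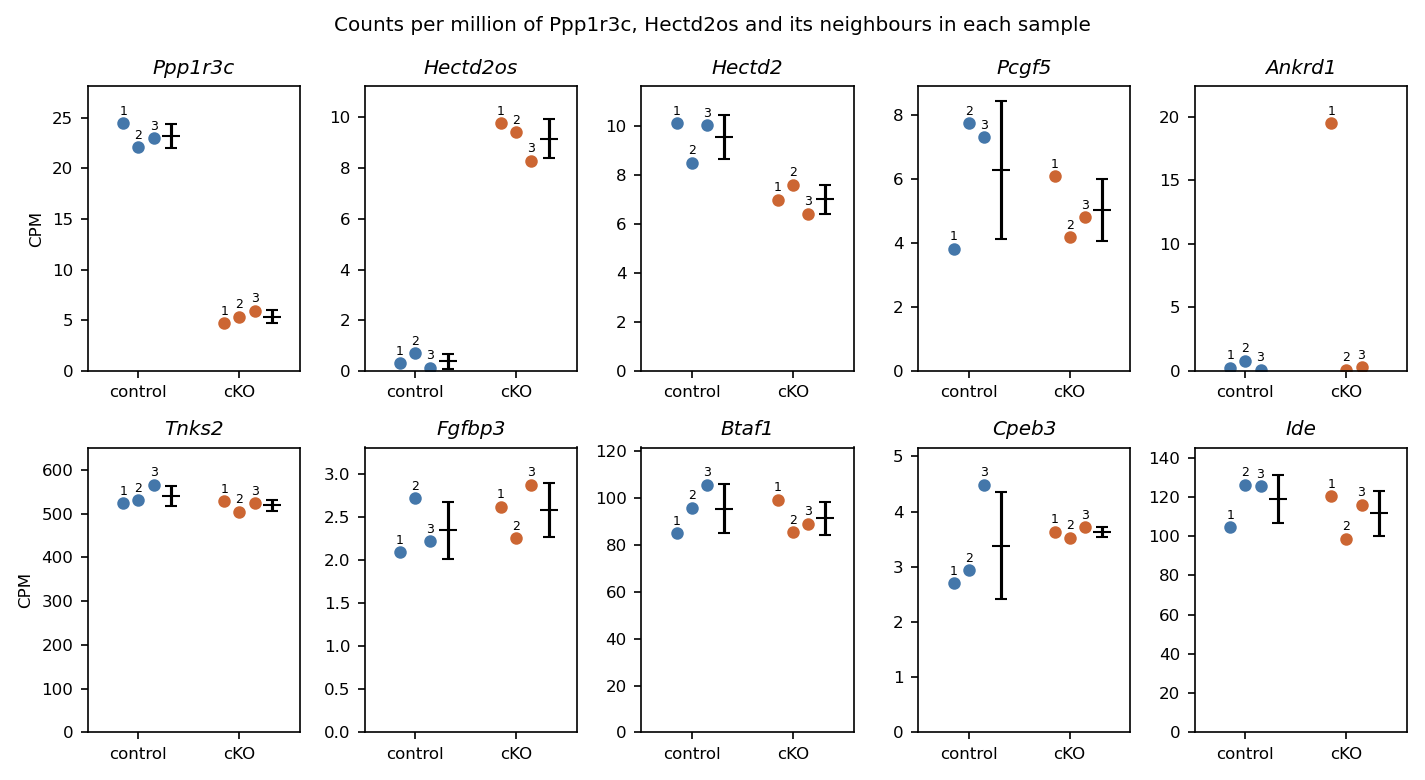
CPM of Ppp1r3c, Hectd2os and the 8 neighbours in each sample (blue, control; orange, cKO; numbers give the replicate), with black bars for the mean ± SD of 3 samples, left out for Ankrd1. Hectd2os was at 0.702 CPM or less in control and 8.29 CPM or more in cKO samples, Hectd2 did not overlap between groups, and Ankrd1 was high in cKO replicate 1.

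To ask whether other genes of the region differed, the neighbours were compared with edgeR across all genes. None of the 8 was called (edgeR FDR below 0.05), where 0.0385% of all 15577 genes were called, 0.0321% as higher and 0.00642% as lower in cKO samples. DESeq2 and limma-voom also called 0, where DESeq2 called 0.779% of the genes to which it gave an adjusted p. At an unadjusted p under 0.05 edgeR had 2 of 8, Hectd2 with a lower and Ankrd1 with a higher mean in cKO samples, against 11.4% of all genes in either direction, 5.56% with higher and 5.8% with lower cKO means. The groups did not overlap for 1 of the 8, Hectd2, and for 15.6% of all genes (8.42% with higher cKO samples). Of the 8 neighbours 3 had positive and 5 negative log2 fold changes, with a median of -0.06 against -0.0034 over all genes tested.

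**Figure D3:**
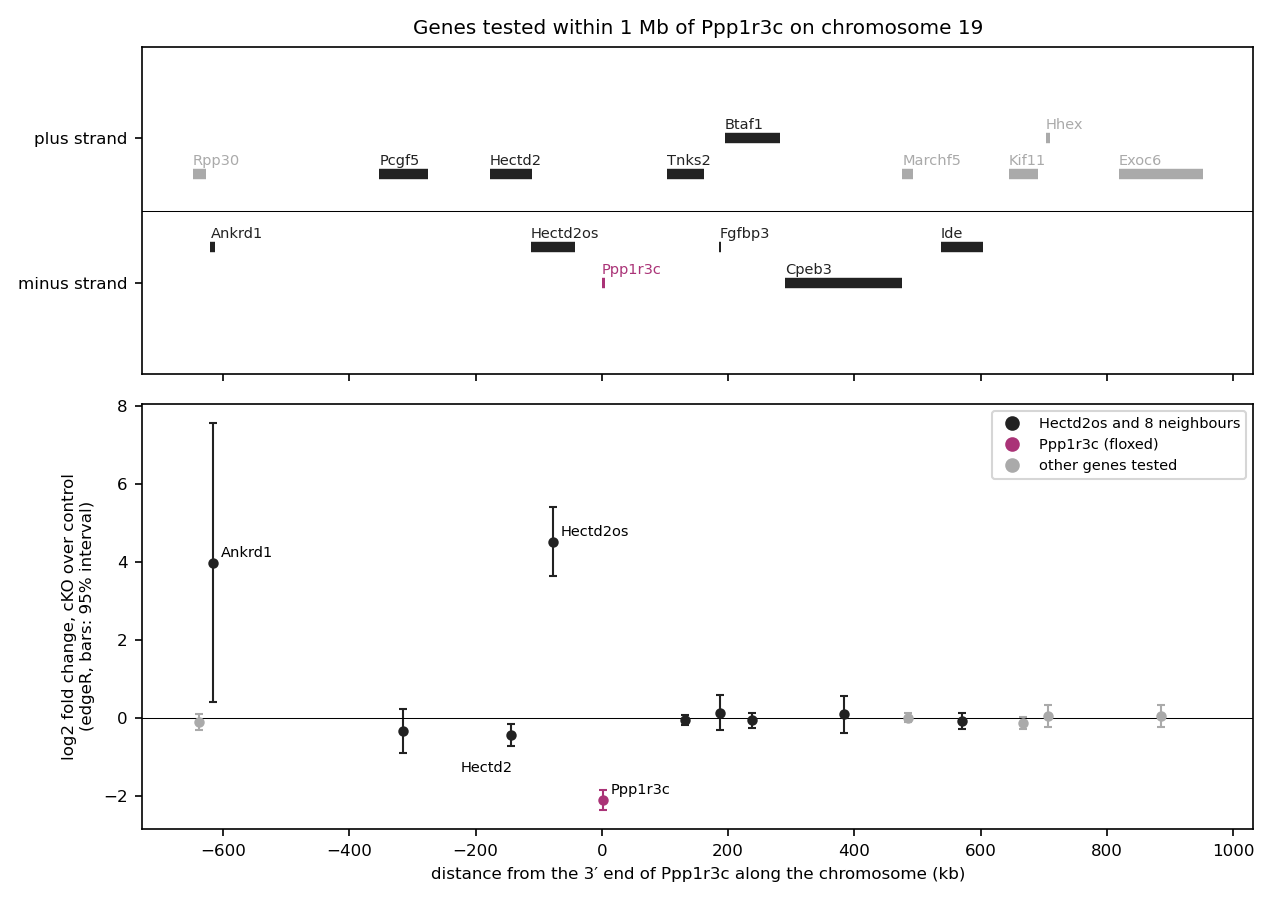
Upper panel, genes tested within 1 Mb of Ppp1r3c by strand and position, and lower panel, their log2 fold change (cKO over control, edgeR) with its 95% interval, against the distance in kb from the 3′ end of Ppp1r3c. Hectd2os (4.52) and Ppp1r3c (-2.11) stand apart, Ankrd1 (3.98) has a wide interval, and the remaining genes lie between -0.44 and 0.13.

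Hectd2, the ubiquitin ligase gene antisense to Hectd2os, lies 110.6 kb from Ppp1r3c. It was at 10.1, 8.49 and 10.004 CPM in control and at 6.98, 7.59 and 6.41 CPM in cKO samples. The groups did not overlap, as for 7.17% of all genes tested in this direction. The mean of the cKO samples differed from that of the controls by -26.6%, with a log2 fold change of -0.44 (SE 0.128, 95% interval -0.73 to -0.15). This difference did not pass adjustment over all genes (edgeR p 0.00697, FDR 0.377; DESeq2 FDR 0.178), and an exact two-sided permutation test gave p = 0.1, which is the lowest p that 3 control and 3 cKO samples can give. The negative sign was kept without each single sample in turn, with log2 fold changes from -0.53 to -0.38. Per length, Hectd2os was at 0.0217 to 0.147 times the level of Hectd2 in control and at 2.21 to 2.49 times in cKO samples. Of the 2662 exonic bases of Hectd2os, 944 overlap no exon of Hectd2, but the counts are per gene, so counts from these bases alone could not be separated here. The share of reads assigned to the wrong strand was not measured.

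The HECT domain ubiquitin ligases, the family of Hectd2, held no call. edgeR called 0 of 25, where it called 0.0385% of all genes. At an unadjusted p under 0.05, 0 were higher and 1 lower (5.56% and 5.8% of all genes), and their median log2 fold change was -0.0077. Hectd2 was that 1 gene and had the lowest p of the list. DESeq2 called 0 genes of this list and of the 5 other family lists described with the neighbours, where it called 0.779% of all genes given an adjusted p.

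Pcgf5, which encodes a PCGF subunit of Polycomb repressive complex 1, lies on the same side of Ppp1r3c as Hectd2 (chr19:36379067-36456204, plus strand, 275.5 kb). It was at 3.82, 7.74 and 7.30 CPM in control and 6.08, 4.17 and 4.81 CPM in cKO samples. The control samples bracketed all cKO samples, with replicate 1 the lowest of the 6. The log2 fold change was -0.35 (SE 0.252, 95% interval -0.92 to 0.21, edgeR FDR 0.612) and was not called. It was -0.58 without control replicate 1 and -0.19 without control replicate 2, the ends of its range over single samples left out. Of 22 PRC1 genes edgeR called 0, with 1 higher and 2 lower at an unadjusted p under 0.05 (5.56% and 5.8% of all genes). Their median was 0.00025. Auts2, whose product joins PCGF5 in PRC1, came first by p, at 0.23 on the log2 scale (SE 0.0667, edgeR FDR 0.377).

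Ankrd1 is the farthest of the 8 neighbours on that side (chr19:36111965-36119844, minus strand, 611.9 kb). It encodes a cardiac and muscle ankyrin repeat protein and is a widely used target gene of the transcriptional regulators YAP and TAZ. Its counts were 4, 36 and 4 in control samples and 782, 4 and 9 in cKO samples. In CPM this was 0.246, 0.815 and 0.0976 in control and 19.5, 0.111 and 0.272 in cKO samples. The level was thus high in cKO replicate 1 alone, and the other cKO samples lay within the control range. The log2 fold change of 3.98 (SE 1.59, edgeR p 0.0329, FDR 0.408) rested on that library and was 1.72 by limma-voom, the exact two-sided permutation p was 0.6, and DESeq2 gave the gene no p. Without cKO replicate 1 Ankrd1 did not pass the filter on low counts.

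Other target genes of YAP and TAZ were compared in the same library. Ccn1 reached 80.1 CPM in cKO replicate 1 against 19.7 to 25.8 CPM in the other 5 samples. Ccn2 reached 67.2 CPM there against 26.1 to 32.6 CPM in the others. Both encode secreted matrix-associated proteins and, with Ankrd1, are among the most used readouts of YAP and TAZ. Of the 13 targets besides Ankrd1, 4 were highest in cKO replicate 1, and 2, Ccn1 and Ccn2, exceeded the next library by more than 1 on the log2 CPM scale. The list of 14 had 0 calls by edgeR, with 3 higher and 0 lower at an unadjusted p under 0.05 (5.56% and 5.8% of all genes). Its median log2 fold change was 0.07, which was 0.0087 without cKO replicate 1 and 0.033 without control replicate 2. The gene of lowest p was Axl, with 0.16 (SE 0.0560, edgeR FDR 0.380).

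**Figure D4:**
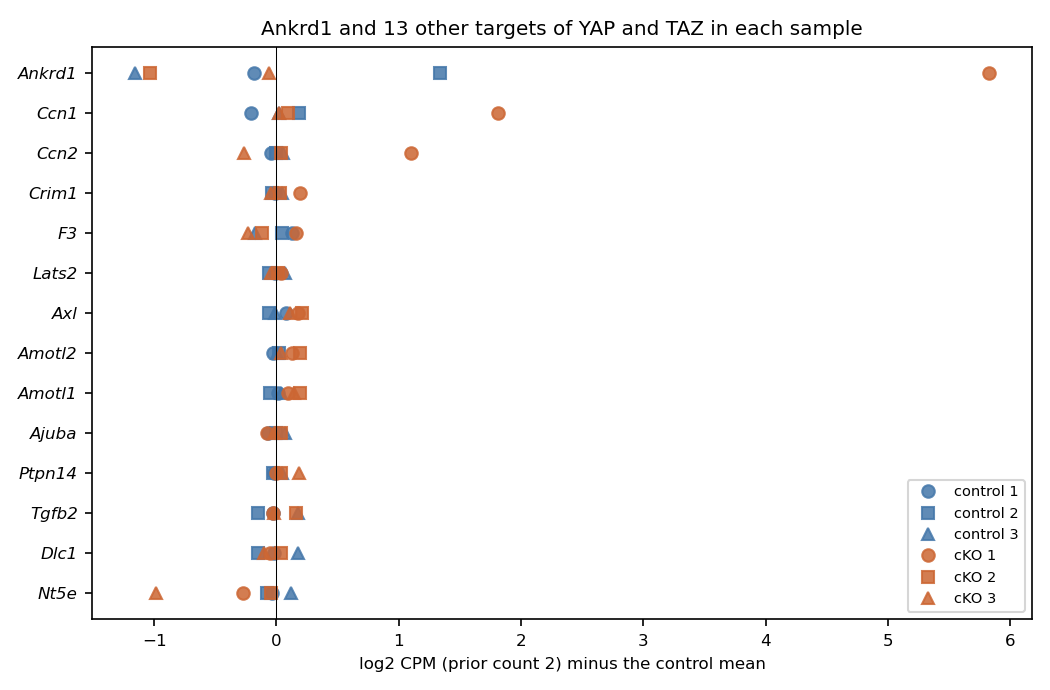
Log2 CPM (prior count 2) minus the control mean of Ankrd1 and 13 other YAP and TAZ target genes in each sample (blue, control; orange, cKO; circle, square and triangle for replicates 1, 2 and 3). Ankrd1 (5.83), Ccn1 (1.81) and Ccn2 (1.096) stand apart in cKO replicate 1, and Nt5e (-0.98) in cKO replicate 3, while the other targets lie near 0 in every sample.

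Ankrd1 was not the only gene high in that library alone. In cKO replicate 1, 17 genes of the whole table were at least 8 times their highest level in any other sample and at 1 CPM or more, a measure chosen after the values were seen. The count was 9 in cKO replicate 3 and 0 in each of the other 4 libraries. Besides Ankrd1 the most abundant in cKO replicate 1 were Thbs2 (87.1 CPM), S100a4 (20.3 CPM) and Ptgs2 (17.4 CPM), and the mesothelial gene Msln was at 8.28 CPM. Hectd2os did not share this pattern, since its level in cKO replicate 1 was close to that in replicate 2.

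On the other side of Ppp1r3c, Tnks2 is the nearest gene, with its start 97.6 kb from that of Ppp1r3c (chr19:36834232-36893477, plus strand). It encodes tankyrase 2, a poly(ADP-ribose) polymerase that marks axin for degradation and acts at telomeres. It was the most abundant of the 9 genes per length, at 83.4 ± 3.49 RPKM in control and 80.0 ± 1.98 RPKM in cKO samples (SD, n = 3 each). In CPM the values were 524, 531 and 566 in control and 528, 504 and 524 in cKO samples, and the groups overlapped. The log2 fold change was -0.06 (95% interval -0.18 to 0.06, edgeR FDR 0.694), and its SE of 0.0530 was the smallest of the 15 genes tested within 1 Mb. Of 12 genes for tankyrases, axins and their partners edgeR called 0. At an unadjusted p under 0.05, 2 were higher and 1 lower (5.56% and 5.8% of all genes), and the median was 0.00069. Terf1, which encodes a telomere protein bound by tankyrases, came first by p, at -0.39 on the log2 scale (SE 0.107, edgeR FDR 0.377).

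Fgfbp3 and Btaf1 form a divergent pair whose starts are 6.48 kb apart. Fgfbp3 (chr19:36917550-36919599, minus strand, 180.9 kb) encodes a secreted protein that binds fibroblast growth factors. It was at 2.09, 2.72 and 2.22 CPM in control and at 2.62, 2.25 and 2.87 CPM in cKO samples, with a log2 fold change of 0.13 (95% interval -0.32 to 0.57, edgeR FDR 0.843). Btaf1 (chr19:36926079-37014057, plus strand, 189.5 kb) encodes an ATPase that removes TBP from DNA. It was at 84.96, 96.0 and 105.8 CPM in control and at 99.4, 85.6 and 89.1 CPM in cKO samples, with a log2 fold change of -0.07 (95% interval -0.27 to 0.13, edgeR FDR 0.798). For both genes the groups overlapped. Of 14 genes for TBP and its regulators edgeR called 0. At an unadjusted p under 0.05, 0 were higher and 1 lower (5.56% and 5.8% of all genes). Their median was -0.08, and 12 of the 14 had negative log2 fold changes, as had 7926 of all 15577 genes tested. Taf5, a subunit of TFIID, had the lowest p (-0.17, SE 0.0758, edgeR FDR 0.434).

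Cpeb3 (chr19:37021291-37207471, minus strand, 284.7 kb) encodes an RNA-binding protein that regulates translation through the poly(A) tail. It was at 2.71, 2.94 and 4.49 CPM in control and at 3.64, 3.53 and 3.72 CPM in cKO samples, which lay between the control samples. The log2 fold change was 0.08 (SE 0.212, 95% interval -0.39 to 0.56, edgeR FDR 0.906), and its sign turned without control replicate 1 or control replicate 2 (-0.032 in both cases). Of 14 genes for CPEB proteins and cytoplasmic polyadenylation edgeR called 0. At an unadjusted p under 0.05, 0 were higher and 1 lower (5.56% and 5.8% of all genes), and the median was -0.03. The lowest p of the list was that of Cpeb1, which acts in germ cells, at -0.85 on the log2 scale (SE 0.284, edgeR FDR 0.377). It was at 32.1, 42.2 and 59.2 CPM in control and 35.3, 15.3 and 24.2 CPM in cKO samples, which overlap. The 13 tested germ cell markers described above had negative log2 fold changes too, from -1.24 to -0.36, and their part in the value of Cpeb1 was not tested.

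Ide (chr19:37268741-37334544, minus strand, 532.1 kb) encodes insulin-degrading enzyme, a metalloprotease of insulin and other peptides. It was at 104.7, 126.3 and 125.6 CPM in control and at 120.2, 98.7 and 116.0 CPM in cKO samples. The groups overlapped, and the log2 fold change was -0.09 (95% interval -0.30 to 0.12, edgeR FDR 0.719). Leaving out single samples gave values from -0.17 (control replicate 1 left out) to -0.012 (cKO replicate 2 left out).

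Per length, the order of the 9 genes in control samples was Tnks2, Ide (24.0 RPKM), Btaf1 (13.3), Pcgf5 (4.17), Hectd2 (2.01), Fgfbp3 (1.32), Cpeb3 (0.511), Ankrd1 (0.191) and Hectd2os (0.142). Hectd2os was thus last, and its range over control samples (0.0458 to 0.264 RPKM) overlapped that of Ankrd1 (0.0483 to 0.403), while no other neighbours in this order overlapped. In cKO samples Hectd2os came next after Tnks2, Ide and Btaf1, and its range (3.11 to 3.67 RPKM) overlapped that of Pcgf5 (2.77 to 4.03), with Ankrd1 spread from 0.0551 to 9.65 RPKM. Hectd2 (1.35 to 1.603 RPKM) and Fgfbp3 (1.27 to 1.62) overlapped there as well.

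The rest of the region was then compared. Of the 21 genes of the table within 1 Mb of Ppp1r3c, 15 were tested. Leaving out Ppp1r3c and Hectd2os, edgeR and DESeq2 called 0 of the other 13. Of all genes given an adjusted p they called 0.0385% and 0.779%, so 0 calls among 13 genes says little about the region. DESeq2 gave Ankrd1 no adjusted p. At an unadjusted p under 0.05 edgeR had 1 higher and 1 lower (5.56% and 5.8% of all genes), the same Ankrd1 and Hectd2. The median log2 fold change of the 13 was -0.06. The 5 tested genes there that are not among the 8 neighbours, Rpp30, Marchf5, Kif11, Hhex and Exoc6, had log2 fold changes between -0.13 and 0.04. Within 5 Mb, edgeR called 0 of 55 genes, where it called 0.0385% of all genes. At an unadjusted p under 0.05, 3 were higher and 2 lower (5.56% and 5.8% of all genes). The groups did not overlap for 5 higher and 1 lower, the latter being Hectd2, where the shares over all genes were 8.42% and 7.17%. Over chromosome 19, again without Ppp1r3c and Hectd2os, edgeR called 0 of 522 genes, beside the same 0.0385% of all genes. At an unadjusted p under 0.05, 31 were higher and 25 lower (5.56% and 5.8% of all genes), and the median log2 fold change was 0.0060.

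The genes whose profile over the 6 samples was most like that of Hectd2os were named by the root mean square difference of log2 CPM centred on the control mean. They were Sprr2d (1.58), Chrm4 (1.63) and 9930111J21Rik1 (1.66), on chromosomes 3, 2 and 11. All 3 spread more widely than Hectd2os among cKO samples. Sprr2d was at 1.47, 1.06 and 3.96 CPM, and Chrm4 at 7.95, 4.45 and 39.8 CPM, highest in both cases in cKO replicate 3, the library with high Xist. 9930111J21Rik1 was at 1.05, 0.306 and 0.272 CPM, highest in cKO replicate 1.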

How the data were processed

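Total RNA of whole testes was sequenced by the authors as stranded mRNA libraries, aligned to mm10 with STAR 2.5 (version from the submitters' processing notes) and counted per RefSeq Curated gene with featureCounts (Subread version 1.5.0-p1) in reverse-stranded mode. The deposited values are these raw counts, with no normalization. Groups and replicate numbers came from the sample titles. Nothing says that pools of 1 group came from separate litters, so p-values measure the spread between these pools. The table held 24470 genes, and 2 symbols stood on more than 1 row.

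The counts were tested with edgeR 4.0.16 in R 4.3.3 (filterByExpr with a minimum count of 10, TMM, quasi-likelihood F-test, Benjamini-Hochberg adjustment over all genes tested). The SE came from the F statistic. DESeq2 1.42.0, which the authors used, and limma-voom (limma 3.58.1) were alternatives, as were RLE size factors, no filter, a stricter filter (1 CPM in 3 samples), a replicate block, thinned libraries, a prior count of 2, and leaving out single samples. DESeq2 without single samples was added after the data were seen. RPKM used exons of GENCODE M21 transcripts paired with curated RefSeq accessions, which may differ from the exons counted by the authors. Promoters from RefSeq matched 8 of the 9 genes and Ppp1r3c, with none for Hectd2. The scripts were tested on simulated data.

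The text names the 9 genes, Ppp1r3c, the gene of lowest p or any called gene in the 1 Mb window, the 3 genes most like Hectd2os, the gene of lowest p in each family list, and library checks. Ccn1, Ccn2, Nt5e, the markers called by DESeq2, Pecam1, the genes high in 1 library and the 5 further genes of the window were named after their values were seen. The genes and lists were chosen with earlier results of these data known.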

Additional observations from a re-analysis of the deposited data

How the results depend on the processing

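The count of neighbours called (0 of 8) and of genes called within 1 Mb of Ppp1r3c without Ppp1r3c and Hectd2os (0) was 0 in every alternative run, DESeq2 without single samples and windows of 250 kb and 5 Mb included. A gene given no adjusted p could not be called, so not every run tested every neighbour. DESeq2 without control replicate 3 gave an adjusted p to 1604 genes, and among the neighbours to Tnks2 alone. Wherever an adjusted p was given, Ppp1r3c stayed below the threshold, with log2 fold changes from -2.20 to -2.03 without single samples. The log2 fold change of Hectd2os ranged from 4.35 to 4.84 over the alternatives on all 6 samples and from 3.998 to 5.63 without single samples. It was 5.63 (edgeR) and 5.68 (DESeq2) without control replicate 2, which held 31 of its control counts. Signs near 0 turned for Btaf1 without control replicate 3 (0.0058, range -0.14 to 0.0058) and for Cpeb3 without control replicate 1 (-0.032 by edgeR, -0.028 by DESeq2) or control replicate 2 (-0.032 and -0.022), with a range up to 0.35. The cause was not tested. Without single samples Tnks2 ranged from -0.081 to -0.030 and Fgfbp3 from 0.043 to 0.24. Ankrd1 had between 4 and 36 counts in each control sample, so its control level is limited by depth. Its log2 fold change was 1.72 by limma-voom and 1.92 with the replicate block, with no call in any setting that gave it an adjusted p.

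Samples with the same replicate number did not deviate together (correlations -0.20, -0.27 and -0.13). With 3 samples per group, each centred on its group mean, these correlations cannot tell whether such samples shared a litter or batch. The main fit did not pair them. A replicate block left edgeR 3 called genes of the whole table in place of 6, the 8 neighbours held 0 calls, and the log2 fold changes of Ppp1r3c and Hectd2os were -2.12 and 4.64.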

Other observations

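The RefSeq promoters of the neighbours differed widely in composition. Those of Tnks2 (61.7% GC, 29 CpG dinucleotides) and Btaf1 (60.0% GC, 25 CpG dinucleotides) were rich in CpG. The 3 entries of Cpeb3 ranged from 46.0% GC with 0 to 77.7% GC with 42 CpG dinucleotides, and the 3 of Pcgf5 from 48.3% GC with 5 to 78.7% GC with 35. That of Ide had 44.0% GC and 0 CpG dinucleotides, the same as that of Hectd2os, and that of Ankrd1 had 54.7% GC and 7 CpG dinucleotides, where the median over all promoters was 52.7% and 7. The Ide entry lies at the RefSeq start (37334544), while the GENCODE M21 transcript used here for its exons starts at 37330613. Which start of Ide these testes used was not tested. Fgfbp3 held 1 match to TATAAA and 1 to CCAAT, and Ankrd1 and Ide held 1 match to CCAAT each. GGGCGG was matched in 2 of the 3 entries of each of Cpeb3 and Pcgf5, and CCAAT in 1 entry of Pcgf5.

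Of the lists of markers of cell types of the gonad, edgeR called 0 genes, while DESeq2 called 4 at an adjusted p below 0.05. Over all genes with an adjusted p, edgeR called 0.0385% and DESeq2 0.779%. The 4 were 1 of 12 Sertoli, 1 of 7 pre-granulosa and 2 of 13 germ cell markers given an adjusted p by DESeq2. Wt1 (Sertoli list, DESeq2 log2 fold change 0.28, FDR 0.0459) and Kitl (pre-granulosa list, 0.39, FDR 0.00544) had higher means in cKO samples. Mael (-0.95, FDR 0.0135) and Dnd1 (-0.70, FDR 0.0429) of the germ cell list had lower means. At an unadjusted p under 0.05 edgeR had 5.56% of all genes with higher and 5.8% with lower cKO means. By that measure 4 of 12 Sertoli cell markers were higher and 0 lower, with a median log2 fold change of 0.04. Of 13 tested germ cell markers 0 were higher and 12 lower (median -0.84). Of 8 pre-granulosa markers 5 were higher and 0 lower (median 0.54). Their mean log2 difference from the control mean was 1.94 in cKO replicate 3, the library with high Xist, and 0.235 and 0.229 in cKO replicates 1 and 2. Of 6 tested mesonephros markers 3 were higher and 1 lower (median 0.44). The 6 endothelial markers held 0 higher and 1 lower, Pecam1 (median 0.0034). The fetal Leydig (median -0.29), macrophage (median -0.06) and erythroid markers (median -0.07), 6 each, held 0 in either direction.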
